A study of Mus musculus with 4 samples.

Results

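Amino acid transporter genes were examined in IMS/N cells, hepatic stellate cells of a normal 129/Sv mouse liver that were immortalized with SV40. The genes are those whose name on the array is Slc1a, Slc3a, Slc6a, Slc7a, Slc36a, Slc38a or Slc43a followed only by digits. This rule uses names and no measured value, and it found 59 genes on 107 probes, of 26793 gene names on 41146 probes with a value. There were 4 cultures with 1 Agilent array each, labelled in a single colour, and the cultures had received palmitic acid (PA) together with ADSC medium, PA alone, ADSC medium alone, or neither (control). ADSC medium is medium taken from cultured adipose tissue-derived stem cells, which came from the inguinal fat of C57BL/6J mice. All 4 cultures share the SV40 immortalization and are 1 cell line. No source used here gives the dose or time of PA, or what control cultures received in place of PA or of ADSC medium. Conditions have no replicate, so every difference below describes 2 arrays, has no p-value, and cannot be separated from the variation between cultures. A lower level in a culture can reflect fewer cells that express a gene or less RNA per cell, which these arrays do not tell apart.

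Solute carriers move amino acids across the plasma membrane and the membranes of lysosomes. The Slc1 family takes up glutamate and neutral amino acids with sodium, and the Slc6 family takes up neurotransmitters, glycine, taurine, betaine and creatine with sodium and chloride. The Slc7 proteins carry cationic or large neutral amino acids, and many of them reach the membrane only when bound to a heavy chain of the Slc3 family. The Slc36, Slc38 and Slc43 families hold proton-coupled, sodium-coupled and facilitative carriers. Several of these genes are known to be driven by ATF4, a transcription factor that cells make more of when amino acids run short. Stellate cells are the retinoid-storing, matrix-producing cells of the liver.

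Levels are quantile-normalized log2 intensities of 1 probe per gene, the one with the highest mean. They are compared between arrays and not between genes, since probes differ in brightness. The error given beside a difference is the SD of the difference between 2 spots of the same probe. It is taken at the probe's mean level over the 4 arrays and rests on spots well above background. It was 0.059 at levels of 11 and above, 0.067 from 9 to 11, 0.080 from 7 to 9, 0.122 from 5 to 7, 0.231 from 3 to 5 and 0.297 under 3, and covers the measurement on the array only. The share of probes well above background lay between 67.5% and 70.0% on the 4 arrays, no spot was saturated, and the 4 arrays lay on 1 slide. Of 15 stellate cell markers, 9 were well above background on all 4 arrays, among them Acta2, Pdgfrb, Col1a1 and Lhx2, whereas Lrat, Hgf, Gfap, Reln, Hand2 and Rgs5 were so on none. Markers of other cells were partly detected, with 2 of 7 hepatocyte, 4 of 7 macrophage, 3 of 6 endothelial, 3 of 5 epithelial and 2 of 5 adipocyte markers well above background on all 4 arrays. Not so on any array were Alb and 3 more of hepatocytes, Ptprc, Adgre1 and Clec4f of macrophages, Pecam1, Cdh5 and Lyve1 of endothelium, Epcam and Cdh1 of epithelium, and Adipoq, Plin1 and Lep of adipocytes. Summed intensities of these marker lists still differed between arrays. In the order PA and ADSC medium, PA, ADSC medium and control, the 5 adipocyte markers summed to 4100, 2010, 4300 and 2830, nearly all of it Fabp4, and the 7 macrophage markers to 1340, 796, 1180 and 831, most of it Cd14. The other lists spanned 129000 to 151000 (stellate), 88.1 to 98.4 (hepatocyte), 314 to 503 (endothelial) and 933 to 1220 (epithelial), and the part of any of these lists in the results was not tested.

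Signal well above background was found for 46 of the 59 transporter genes on 1 array or more and for 42 on all 4. The 13 without it on any array include carriers known from brain, kidney and gut: Slc1a7 (a glutamate transporter of the retina), Slc6a2 (noradrenaline), Slc6a5 (glycine), Slc6a15, Slc6a18 and Slc6a19 (neutral amino acids), Slc7a10, Slc7a12, Slc7a13, Slc36a2, Slc38a8 and Slc38a11. By family, at least 1 array showed 6 of 7 Slc1 genes, 2 of 2 Slc3 genes, 12 of 18 Slc6 genes, 12 of 15 Slc7 genes, 3 of 4 Slc36 genes, 8 of 10 Slc38 genes and 3 of 3 Slc43 genes. A gene entered a comparison if 1 or both of the arrays compared showed it well above background, and where only 1 did, its difference is a bound and carries the words "at least".

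PA against control left most transporter genes within 1.5-fold (0.585 on the log2 scale). Of 46 genes compared, 2 were at least 1.5-fold higher (4.35%, against 2.92% of all genes) and 3 at least 1.5-fold lower (6.52%, against 3.27%), and the median difference was 0.02. With the 75th percentile scaling 1 was higher (against 2.52% of all genes) and 3 were lower (against 4.23%). With ADSC medium against control, 3 of 44 were higher (6.82%, against 2.31% of all genes) and 1 was lower (2.27%, against 1.29%), with a median of -0.003. The larger count came where both were present. In PA and ADSC medium against PA, 8 of 46 genes were at least 1.5-fold higher (17.4%, against 5.25% of all genes) and 3 were lower (6.52%, against 3.72%), although the median was -0.05 (0.06 with the 75th percentile scaling) and 24 of the 46 were below 0. The members nearest to the limit were Slc1a2 (0.68) inside and Slc7a3 (0.40) outside on the higher side, and Slc1a1 (-0.61) inside and Slc7a8 (-0.58) outside on the lower. Of the 8, Slc1a3 (2.48), Slc6a12 (2.09), Slc38a2 (0.99) and Slc6a6 (0.69) stood above 5 in level on every array, while Slc6a4 (1.44), Slc3a1 (0.94), Slc6a7 (0.93) and Slc1a2 (0.68) were dim. In PA and ADSC medium against ADSC medium, 6 of 44 were higher (13.6%, against 3.54% of all genes) and 0 were lower (against 3.14%). For PA and ADSC medium against control the counts were 6 of 44 higher (13.6%, against 4.68%) and 2 lower (4.55%, against 3.67%). With the normexp background, which adds an offset of 50 and so shrinks differences of dim probes, the counts in PA and ADSC medium against PA were 4 higher (against 1.84% of all genes) and 1 lower.

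**Figure D1:**
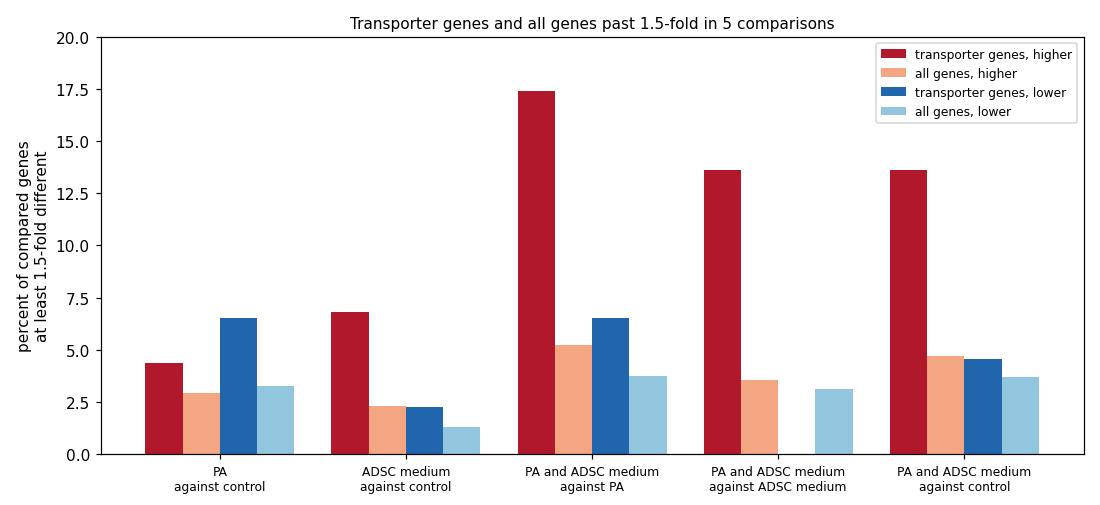
Percent of compared genes that were at least 1.5-fold higher (red) or lower (blue) in 5 comparisons, for the amino acid transporter genes (dark bars, 44 or 46 genes) and for all genes (light bars). The tallest bar is the 17.4% of transporter genes higher in PA and ADSC medium against PA, beside 5.25% of all genes.

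Slc1a3 encodes the glutamate and aspartate transporter GLAST. Its level was 7.91 with PA and ADSC medium, 5.43 with PA, 7.05 with ADSC medium and 6.16 in control (chromosome 15, 8584236 to 8584295, mm9). The PA array was the lowest of the 4 and the array with both treatments the highest. The gene was 1.66-fold lower with PA than in control (-0.73, spot SD 0.122), 1.86-fold higher with ADSC medium than in control (0.90), and 5.58-fold higher with PA and ADSC medium than with PA (2.48). Against ADSC medium, PA and ADSC medium stood higher by 0.85, so the difference made by PA was negative without the medium and positive with it, and these effects differed by 1.58 (spot SD 0.172). A second probe gave -0.74, 0.13, 2.02 and 1.15 for the same 4 differences. The remaining probe, which was well above background on 1 array only, had 3.35 with PA and ADSC medium and 0.06 with PA. With normexp the PA difference was -0.33 and the ADSC medium difference 0.58, both under 1.5-fold, and the difference between PA and ADSC medium and PA was 1.53.

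Slc1a6, the glutamate transporter EAAT4 known from Purkinje cells, was lower on the arrays with ADSC medium, with little difference by PA. It measured 10.85 with PA and ADSC medium, 11.93 with PA, 11.00 with ADSC medium and 12.01 in control (chromosome 10, 78277447 to 78277506, mm9). Both arrays with ADSC medium lay about 1 log2 unit below both arrays without it. The medium differences were -1.08 with PA present and -1.01 without it, and the PA differences were -0.15 and -0.07 (spot SD 0.059). This gene has 1 probe on the array.

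Among the other Slc1 genes, the broad neutral amino acid exchangers differed little. Slc1a5 (ASCT2, which carries glutamine) stayed between 12.36 and 12.44 on all 4 arrays. Slc1a4 (ASCT1, which carries alanine, serine and cysteine) had 9.90 with PA and ADSC medium, 10.01 with PA, 9.81 with ADSC medium and 10.00 in control. Slc1a2, the glial glutamate transporter GLT-1, was dim at 4.52, 3.85, 3.75 and 3.46 in the same order, and was higher with PA and ADSC medium than with PA (0.68, spot SD 0.231; 0.16 with normexp). A second probe, well above background on 3 arrays, gave 1.06 for that difference. Slc1a1, the neuronal glutamate transporter EAAC1, was well above background on the PA array only (2.73) by the probe that represents it. By that probe it was at least 1.53-fold lower with PA and ADSC medium than with PA. Its second probe, well above background on 2 arrays, had 2.17 with PA and ADSC medium and 2.22 with PA, a difference of -0.05.

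Slc6a12 and Slc6a6 carry organic osmolytes, the solutes cells gather to hold their volume. Slc6a12 encodes the betaine and GABA transporter BGT-1, and its probe lies on chromosome 6, 121315541 to 121315600, mm9. It had a level of 9.17 with PA and ADSC medium, 7.08 with PA, 7.56 with ADSC medium and 6.58 in control. Every treated array was above control, and the one with both treatments was highest by more than 1.6. Differences from control were 0.50 for PA, 0.98 for ADSC medium and 2.59 for both (6.02-fold, spot SD 0.080). PA made a larger difference with ADSC medium (1.61) than without it (0.50), by 1.11 with a spot SD of 0.113. With normexp, which keeps the order, the difference of both from control was 2.04.

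Slc6a6, the taurine transporter, had 12.52 with PA and ADSC medium, 11.83 with PA, 12.46 with ADSC medium and 12.48 in control (chromosome 6, 91708620 to 91708679, mm9). By this probe only the PA array stood apart, and the other 3 lay within 0.06. A second probe was also lowest with PA (8.59), but spread more on the others: 9.35 with PA and ADSC medium, 9.20 with ADSC medium and 9.09 in control. The gene was 1.57-fold lower with PA than in control (-0.65, spot SD 0.059) and 1.61-fold higher with PA and ADSC medium than with PA (0.69). The second probe gave -0.50 and 0.76, and the mean of both probes put the PA difference at -0.57, under 1.5-fold.

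In the kidney of other mammals Slc6a12 is known to be driven by NFAT5, a transcription factor that binds a tonicity-responsive element called TonE. RefSeq promoters (GRCm38.p6) were on hand for 41 of the 59 genes, in 62 entries, of which the 250 bases before the start were searched on both strands. TonE matched 1 of 5 Slc6a12 promoters, shown here because this gene had the largest difference from control among the transporters. The window is 121342479 to 121342529 of chromosome 6 on the plus strand, with the match in capitals, 75 to 65 bases before the start.
Slc6a12: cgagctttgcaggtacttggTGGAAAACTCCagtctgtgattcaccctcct
Over all 32851 promoters of that length, 4.31% held a TonE match, and among the transporter promoters 5 of 62 did, of Slc6a12, Slc6a13, Slc6a17, Slc36a3 and Slc38a4. A match is a run of letters and not a measured binding site.

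Slc38a2 encodes SNAT2, a sodium-coupled carrier of alanine and glutamine that accumulates when cells lack amino acids or lose water. Its level was 14.67 with PA and ADSC medium, 13.68 with PA, 14.33 with ADSC medium and 14.14 in control (chromosome 15, 96518491 to 96518550, mm9). As for Slc1a3, the PA array was lowest and the array with both treatments highest. The gene was 1.99-fold higher with PA and ADSC medium than with PA (0.99, spot SD 0.059), and the 3 other probes gave 0.83 to 1.01. PA differed from control by -0.46, and PA and ADSC medium differed from ADSC medium by 0.35, effects that lay 0.80 apart with a spot SD of 0.084. Of the other system A and N carriers, Slc38a1 (SNAT1) stayed between 11.62 and 11.80, Slc38a7 (a lysosomal glutamine exporter) between 10.12 and 10.33, and Slc38a10 between 11.67 and 11.86. Slc38a9, the arginine-sensing carrier of the lysosome, lay between 8.40 and 8.53 by the probe that represents it. Of its 4 probes, the others gave -0.44, 0.02 and 0.69 for PA and ADSC medium against PA. The values of -0.44 and 0.69 came from dim probes (spot SD 0.231). Slc38a4 (4.77 to 5.10) was dim and its 2 probes disagreed in direction between PA and ADSC medium and PA.

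**Figure D2:**
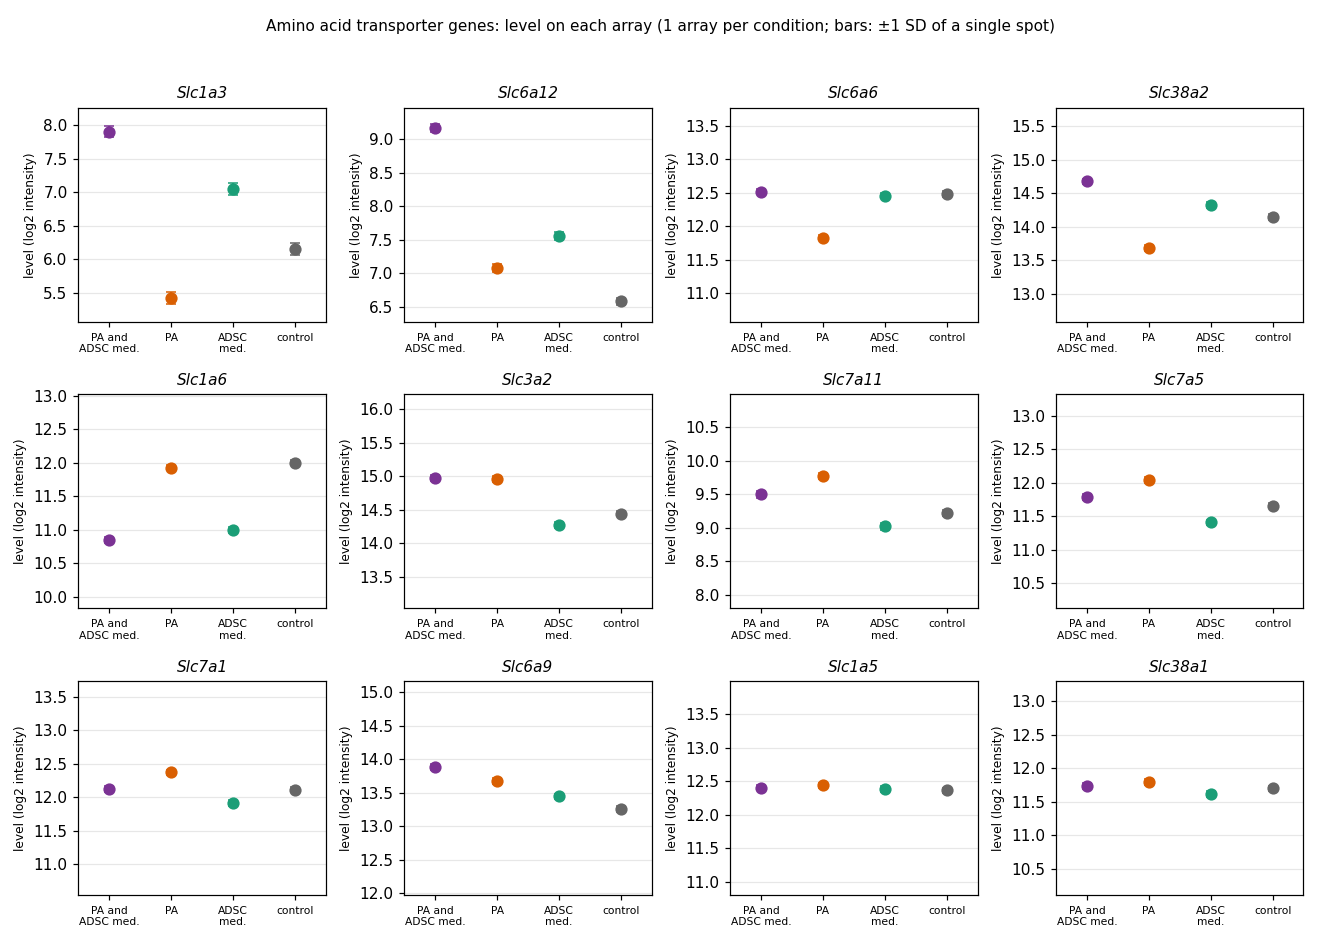
Level (quantile-normalized log2 intensity) of 12 amino acid transporter genes on the PA and ADSC medium, PA, ADSC medium and control arrays, 1 point per array, with bars of 1 SD of a single spot. Slc1a3, Slc6a6 and Slc38a2 were lowest on the PA array, Slc1a6 was lower on both arrays with ADSC medium, and Slc3a2, Slc7a11, Slc7a5 and Slc6a9 were higher with PA in both pairs.

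Some carriers, among them Slc3a2 and the light chains Slc7a5, Slc7a7 and Slc7a11, were higher with PA whether or not the medium was present, mostly by less than 1.5-fold. The Slc7 family as a whole was not: of its 12 compared genes, 6 were above 0 and 6 below with the medium (median -0.03), and 7 above and 5 below without it (median 0.07). Slc3a2 encodes the heavy chain CD98 that partners several Slc7 proteins, and its level was 14.98 with PA and ADSC medium, 14.96 with PA, 14.28 with ADSC medium and 14.44 in control (chromosome 19, 8782189 to 8782248, mm9). Both PA arrays stood above both arrays without PA. The PA difference was 0.70 with the medium (1.62-fold) and 0.52 without it (1.43-fold, spot SD 0.059), and the second probe gave 0.65 and 0.30. With the 75th percentile scaling the difference without the medium was 0.38.

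Slc7a11 encodes xCT, the light chain that imports cystine in exchange for glutamate. Its 4 levels were 9.50 with PA and ADSC medium, 9.77 with PA, 9.02 with ADSC medium and 9.22 in control (chromosome 3, 50176047 to 50176106, mm9). PA made a difference of 0.48 with the medium and of 0.55 without it (spot SD 0.067), and 2 further probes gave 0.57 and 0.52, and 0.53 and 0.52. The fourth and dimmest probe gave 0.16 and -0.28, so that the mean of detected probes was 0.33 without the medium. Slc7a5, the light chain LAT1 that carries leucine, had 11.79 with PA and ADSC medium, 12.04 with PA, 11.41 with ADSC medium and 11.66 in control. Its PA differences were 0.38 in both pairs, and its medium differences were -0.25 in both pairs. The arginine and lysine transporter gene Slc7a1 (CAT1) had 12.13, 12.37, 11.91 and 12.11 in the same order, with PA differences of 0.22 with the medium and 0.26 without it. Slc6a9, the glycine transporter GlyT1, had 13.89 with PA and ADSC medium, 13.67 with PA, 13.44 with ADSC medium and 13.26 in control, and here both treatments went with higher levels, so that the array with both was 1.55-fold above control (0.63, spot SD 0.059). By the probes that represent Slc3a2, Slc7a11, Slc7a5, Slc7a1 and Slc6a9, the PA differences with and without the medium lay within 0.19 of each other. They lay further apart by the second Slc3a2 probe (0.65 and 0.30) and the fourth Slc7a11 probe (0.16 and -0.28).

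Slc7a11 is a known ATF4 target through C/EBP-ATF elements in its promoter, which is why it is shown. The letters searched were TGATGNAA on both strands, and the 1 promoter entry of Slc7a11 held 2 matches, 66 to 59 and 47 to 40 bases before the start, the second on the opposite strand. The window is 50443633 to 50443699 of chromosome 3, minus strand, GRCm38.p6, with the matches in capitals.
Slc7a11: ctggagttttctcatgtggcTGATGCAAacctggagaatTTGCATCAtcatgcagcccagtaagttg
These letters occurred in 3.45% of the 32851 promoters, and in 3 of the 62 entries of transporter genes, of Slc7a11 and Slc7a7. TGACNNNGC, the core of the antioxidant response element that NRF2 binds, was found in 10.2% of all promoters and in 9 of the 62, of Slc6a9, Slc6a11, Slc6a13, Slc6a16, Slc7a1, Slc7a6, Slc38a2 and Slc43a1.

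**Figure D3:**
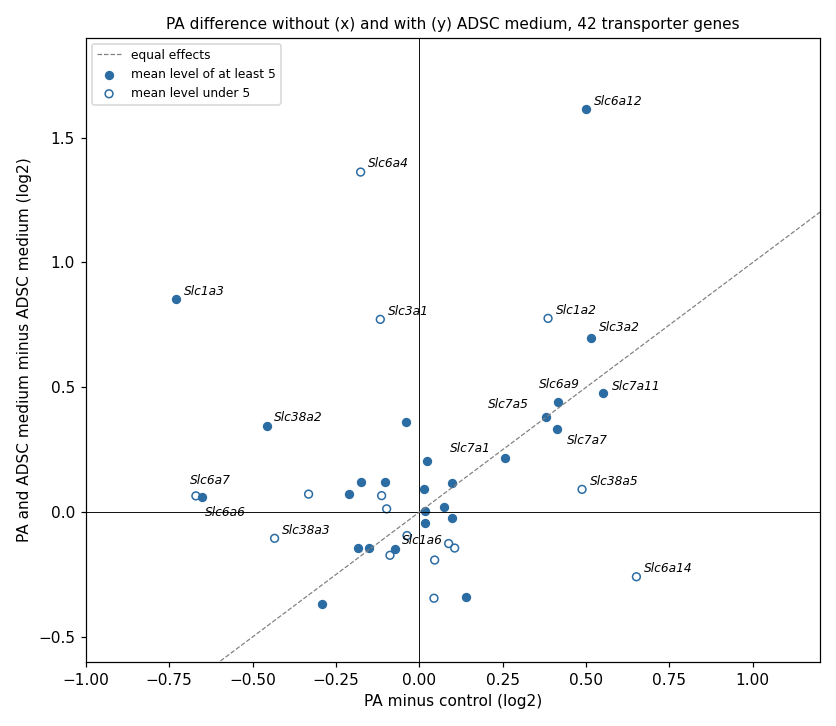
Difference PA minus control (x) and PA and ADSC medium minus ADSC medium (y), both log2, for the 42 transporter genes well above background on all 4 arrays; open points are genes with a mean level under 5, and the dashed line marks equal effects. Slc3a2, Slc7a11, Slc7a5, Slc6a9 and Slc7a1 lie near the line, while Slc1a3 (-0.73 and 0.85), Slc38a2 (-0.46 and 0.35) and Slc6a12 (0.50 and 1.61) lie above it.

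The 2 PA comparisons share no array, and likewise the 2 ADSC medium comparisons. Of the 42 transporter genes well above background on all arrays, 21 differed in the same direction with PA in both (50%, against 63.8% of all such genes). Among the 9 that differed by at least 0.3 in both, 7 had the same direction (77.8%, against 81.7% of all genes). For the medium, 27 of 42 had the same direction in both (64.3%, against 63.1%). These are descriptions over genes, which are not independent of each other.

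The remaining Slc7 genes stayed within 1.5-fold on the brighter probes. Slc7a3, the cationic carrier CAT3, had 9.25 with PA and ADSC medium, 8.85 with PA, 8.89 with ADSC medium and 8.89 in control, so that the array with both treatments was the highest (0.40 above PA, spot SD 0.080). Slc7a6, a light chain that exchanges arginine for neutral amino acids, had 9.26, 8.90, 9.19 and 9.11 in the same order. Slc7a7, a related light chain, had 5.86, 5.97, 5.52 and 5.55, with both PA arrays the higher ones. Slc7a8, the light chain LAT2, was dim at 3.59, 4.17, 3.72 and 4.09, and its difference of -0.58 between PA and ADSC medium and PA fell just short of 1.5-fold. Slc7a2, the inducible cationic carrier CAT2, was at least 1.74-fold lower with PA and ADSC medium than in control, at 2.04 against 2.91, but with normexp the difference was -0.10.

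Lysosomal and facilitative carriers differed little by the probe that represents each. Slc36a1, the proton-coupled carrier PAT1 of the lysosome, stayed between 9.66 and 9.83, and Slc36a4 between 7.48 and 7.78. Slc43a1 (LAT3, which carries leucine) was lower with PA in both pairs, at -0.37 with the medium and -0.29 without it (spot SD 0.122). Slc43a2 (LAT4) was dim and lay between 3.49 and 3.68 by that probe. Its second probe gave 0.83 for PA and ADSC medium against ADSC medium, past 1.5-fold, where the representing probe gave -0.19 (spot SD 0.231). Slc43a3, a carrier of purine nucleobases, had 11.81 with PA and ADSC medium, 12.20 with PA, 12.15 with ADSC medium and 12.06 in control, so the array with both treatments was the lowest (-0.39 against PA, spot SD 0.059). The creatine transporter gene Slc6a8 lay between 13.28 and 13.36. The 12 remaining detected transporter genes were Slc6a3, Slc6a13, Slc6a16, Slc7a4, Slc7a9, Slc7a14, Slc7a15, Slc36a3, Slc38a3, Slc38a5, Slc7a7 and Slc6a17. They differed by between -0.49 and 0.49 in every comparison they entered, by the probe that represents each. Slc6a3, well above background on 1 array, had a difference only for PA against control and for PA and ADSC medium against PA.

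Several genes past 1.5-fold had dim probes, and each of their calls ended with normexp. Slc6a4, the serotonin transporter, had 5.22 with PA and ADSC medium, 3.78 with PA, 3.86 with ADSC medium and 3.95 in control, and stood 2.72-fold above PA (1.44, spot SD 0.231; 0.37 with normexp). Slc3a1, the heavy chain of the cystine carrier of the kidney, had 4.72, 3.79, 3.95 and 3.90 in the same order and stood 1.91-fold above PA (0.21 with normexp). In both genes the array with both treatments was above the other 3, which lay close together. The proline transporter gene Slc6a7 had 3.57, 2.64, 3.51 and 3.31, with the PA array lowest (-0.67 against control, -0.13 with normexp). Slc6a11, a GABA transporter, was highest on the PA array at 3.44, against 2.64 in control (0.80, or 0.06 with normexp). For Slc6a14, a carrier of neutral and cationic amino acids, the levels were 2.99, 3.31, 3.25 and 2.66, with PA at 0.65 and ADSC medium at 0.59 above control (0.15 and 0.15 with normexp). The PA difference was 0.57 with the 75th percentile scaling, under 1.5-fold.

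Probes of the same gene sit at different places in the transcript, so they give a check within the arrays but not between cultures. The 30 transporter genes with several probes included Slc38a1, whose 5 probes lay between 0.10 and 0.25 for PA against control, and Slc38a2, whose 4 probes lay between -0.54 and -0.43. Slc6a17, a vesicular carrier of neutral amino acids, was not past 1.5-fold by its brightest probe (0.14 for PA and ADSC medium against PA), but another of its probes had 4.38 with PA and ADSC medium and 2.31 with PA, where it was not well above background, a difference of at least 2.08. The positions are those of the array's annotation, which does not say whether a probe lies in coding sequence or UTR.

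**Figure D4:**
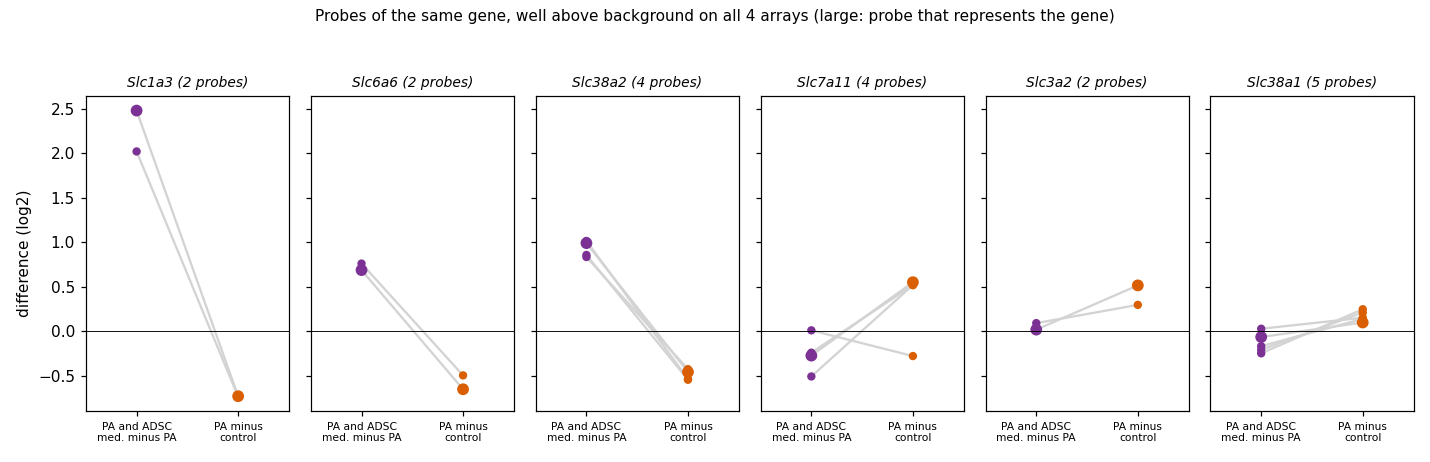
Log2 differences PA and ADSC medium minus PA (purple) and PA minus control (orange) for each probe well above background on all 4 arrays, for 6 transporter genes, with lines joining the values of 1 probe. The probes of Slc1a3, Slc6a6 and Slc38a2 lie above 0 on the left and below 0 on the right, and 1 of the 4 Slc7a11 probes departs from the other 3.

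The authors' deposited table of probes called higher with PA than in control lists 1580 probes, of which 10 belong to transporter genes (9.35% of their probes, against 3.84% of the array). They are probes of Slc6a12, Slc7a11, Slc38a5, Slc7a7, Slc6a14, Slc6a11, Slc38a9, Slc38a8, Slc1a1 and Slc1a2, and the Slc38a8 probe was well above background on no array. The Slc38a9, Slc1a1 and Slc1a2 probes are not those that represent these genes here. Apart from Slc6a12 and Slc7a11, no level of these probes exceeded 5.97. Of these genes, only Slc6a11 and Slc6a14 were at least 1.5-fold higher with PA than in control by the representing probe. The authors' deposited table of probes called higher with PA than with PA and ADSC medium lists 920. Of these, 2 belong here (1.87% of the transporter probes, against 2.23% of the array), those of Slc1a6 and Slc6a11. Slc3a2 and Slc7a5 are in neither. No source used here states the selection rule of these tables.

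Genes that work with these carriers were described by their lists. Of 30 ATF4 and amino acid stress genes, 3 passed 1.5-fold upward with PA against control (2.92% of all genes did) and 0 downward (3.27%). In this list 26 were above 0 (8840 of 18209 over all genes), and the median was 0.26, against -0.01 over all genes. Asns, which makes asparagine, was at 0.47, Cth, which makes cysteine, at 0.70, and Atf3 at 0.88. The secreted factors Gdf15 and Fgf21 were at 0.61 and 0.52, Fgf21 being dim (spot SD 0.231). The 4 genes below 0 were Stc2 (-0.21), Chac1 (-0.12), Nupr1 (-0.09) and Ddit4 (-0.04). With the medium present the PA median of this list was 0.29, with Cth at 0.61 and Atf3 at 1.17. The 20 aminoacyl-tRNA synthetase genes had a median of 0.13 with PA, 19 of them above 0 and 0 past 1.5-fold, led by Eprs at 0.42. The 29 genes of amino acid sensing by mTORC1 had a median of -0.02 with PA, and of them Sesn1, which encodes a sestrin, had 11.48 with PA and ADSC medium, 9.95 with PA, 11.15 with ADSC medium and 10.73 in control. In the list of 15 glutathione genes, 1 was higher with PA (against 2.92% of all genes) and 2 were lower (against 3.27%), with a median of -0.08. Gclm, the regulatory subunit of the first enzyme of glutathione synthesis, was at -0.79. Ggt5, an enzyme that cleaves glutathione conjugates, had 3.28 with PA and ADSC medium, 1.62 with PA, where it was not well above background, 5.06 with ADSC medium and 3.16 in control.

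Glutamine, glutamate, proline and branched-chain amino acid genes were mostly within 1.5-fold. Of 24 compared, 0 passed with PA against control, where 2.92% of all genes were higher and 3.27% lower. With PA and ADSC medium against PA, 2 of the 24 were higher, against 5.25% of all genes. These were Arg2, the mitochondrial arginase, at 1.42 and Glul, the glutamine synthetase, at 0.60. Other amino acid and related carriers had a median of 0.09 with PA against control over 23 genes. Slc15a3, a lysosomal carrier of histidine and peptides, had 5.37 with PA and ADSC medium, 1.54 with PA, 6.05 with ADSC medium and 4.82 in control. It was not well above background on the PA array, so it was at least 2.75 lower with PA than in control and at least 3.30 higher with PA and ADSC medium than with PA. Its order over the arrays had the PA array lowest, as for Slc1a3, Slc6a6 and Slc38a2.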

How the data were processed

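Signals of 4 arrays (design 014868, positions on mm9) were used. The deposited values are intensities that, per the file headers, come from Feature Extraction 12.1.1.1 (protocol GE1_105_Dec08), which subtracts background and detrends inside each array and leaves the arrays unscaled against each other. Quantile normalization by the authors is recorded in the series' design text, and R 3.5.1 in the submitters' processing notes. The scanner software's flags, columns of 0 or 1, are deposited in the same files.

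Control spots and outlier-flagged spots (82 to 104 on an array) were left out. Log2 intensities of the same probe were averaged and quantile-normalized with limma 3.58.1 in R 4.3.3, and a value on every array existed for 41146 of 41174 probes. Well above background means that the scanner software marked over 50% of a probe's spots so. For a gene so marked on only 1 of 2 arrays, the dim array's value was raised, if lower, to a floor, the lowest such level of that array (2.11 for PA and ADSC medium, 2.07 for PA, 2.30 for ADSC medium, 2.43 for control), and where this turned the order no difference is given. RefSeq accessions renamed 635 probes, none of them of a transporter gene. The spot SD comes from 245 probes on 10 spots each. With 1 array per condition no test between conditions was run. The step that makes the 1.5-fold calls was checked on simulated levels, with 2-fold changes of brighter genes and the spread between spots as the only noise. That check does not bear on dim genes, on differences near 1.5-fold, or on the variation between cultures. Later steps used Python 3.11.15, numpy 2.4.6, pandas 2.3.3 and matplotlib 3.10.9.

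Members, lists and motifs were chosen with earlier results of these data known. Genes named are those at least 1.5-fold different in at least 1 of 5 comparisons, the brightest of each family, and a fixed set of carriers (34 in all), and of other lists those with the largest differences. Genes named outside this rule (Slc6a17, Slc7a7, Asns, and the genes in the authors' tables or with a promoter match) were chosen after their values were seen. One gene is not reported here by name.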

Additional observations from a re-analysis of the deposited data

Results flagged for a closer look

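Slc1a3 drew attention because PA went with a lower level without ADSC medium and a higher level with it, each by at least 1.5-fold. The differences were -0.73 for PA against control and, in the presence of the medium, 0.85 for PA and ADSC medium against ADSC medium. A comparison of these effects was not tested, since every condition has 1 array.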

How the results depend on the processing

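No paired analysis was possible because each condition has 1 array. Of the 34 differences of transporter genes past 1.5-fold, 15 stayed past it in the same direction with the normexp background. The number was 31 with the mean of detected probes, 32 with the 75th percentile scaling, and all 34 with outlier-flagged spots kept. All 34 also stayed without the filter on dim probes, but this was fixed in advance. For these differences the filter can only shrink a value or leave it as it is. Counts are given with the share of all genes in brackets. With normexp, of 43 to 46 genes, 0 were higher (1.2%) and 1 lower (0.893%) for PA against control. For ADSC medium against control 1 was higher (0.585%) and 1 lower (0.116%). With PA and ADSC medium, 4 were higher (1.84%) and 1 lower (0.542%) against PA. Against ADSC medium 3 were higher (1.35%) and 0 lower (0.776%), and against control 3 were higher (2.08%) and 1 lower (0.782%). Without the filter, of 59 genes, 5 were higher (5.92%) and 5 lower (5.64%) for PA against control. For ADSC medium against control 4 were higher (5.81%) and 4 lower (4.52%). For PA and ADSC medium against control 7 were higher (7.36%) and 4 lower (6.24%). The unfiltered counts were 8 higher (7.01%) and 4 lower (6.09%) for PA and ADSC medium against PA. They were 9 higher (6.08%) and 0 lower (5.92%) for PA and ADSC medium against ADSC medium. At 2-fold, of 44 or 46 genes, 0 were higher (1.09%) and 0 lower (0.599%) for PA against control. For ADSC medium against control 0 were higher (0.533%) and 1 lower (0.121%). With PA and ADSC medium, 3 were higher (1.75%) and 2 lower (0.507%) against PA. Against ADSC medium 2 were higher (1.26%) and 0 lower (0.477%), and against control 4 were higher (1.81%) and 1 lower (0.422%). The 75th percentile scaling left 1 gene higher (2.52%) for PA against control. None of the calls changed direction in the settings tried, and the medians of the transporter genes moved by less than the spot SD, though that for PA and ADSC medium against PA was -0.05 with quantile normalization and 0.06 with the 75th percentile scaling. The normexp offset shrinks dim differences by construction; otherwise the cause was not tested. Dim genes are limited by signal over background, and the variation between cultures is unknown for all.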

Other observations

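Slc6a12, Slc6a6 and Slc38a2 are known in other mammalian cells as genes of the response to hypertonic medium, so 6 further genes of that response were looked up after those values were seen, and they carry no test. Slc5a3, which imports the osmolyte myo-inositol, had 10.77 with PA and ADSC medium, 8.93 with PA, 10.36 with ADSC medium and 9.72 in control. Akr1b3, the aldose reductase that makes sorbitol, had 16.68, 15.01, 15.98 and 15.33 in the same order. Hspa4l, which encodes a chaperone known from osmotic stress, had 12.42, 10.52, 11.87 and 11.29. Nfat5, the transcription factor of this response, had 11.57, 10.83, 11.51 and 11.37. Pnpla6, whose product frees the osmolyte glycerophosphocholine from lipid, had 10.84, 10.07, 10.70 and 10.41, and the kinase gene Sgk1 had 14.22, 13.66, 14.18 and 13.99. In all 6 the PA array was the lowest and the array with both treatments the highest. For Nfat5 (0.058) and Sgk1 (0.04), the lead over the culture given only the medium was within the spot SD of 0.059. That lead had a median of 0.27 in the 6 genes, and 1 of them passed 1.5-fold (3.54% of all genes did). The median difference of the 6 was -0.44 for PA against control, 0.44 for ADSC medium against control and 1.22 for PA and ADSC medium against PA, and 5 of the 6 were past 1.5-fold in the last. Over all genes the medians were -0.01, -0.01 and -0.02, and 5.25% were at least 1.5-fold higher in the last. Slc6a12 differed from these genes in being higher with PA than in control.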
